A study of Mus musculus with 6 samples.

Results

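The 8 genes of the membrane serine protease system were followed in 344SQ, a mouse lung cancer cell line, as probe sets whose platform annotation names exactly 1 gene that is one of them. They are the Kunitz-type inhibitor genes Spint1 and Spint2 and the protease genes St14, Tmprss2, Tmprss4, Hpn, Prss8 and Prss22. All 8 were found, on 12 of the 34945 probe sets with 1 gene symbol, and they are 8 of the 18193 genes measured. The group was picked because Spint1 is higher after Pik3ca knockdown. The members' differences in this comparison are therefore given as descriptions without p-values.

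The labels assign 3 arrays to 344SQ cells with a control short hairpin RNA (shRNA) and 3 to 344SQ cells with an shRNA against PIK3CA, the gene of the p110-alpha catalytic subunit of phosphoinositide 3-kinase. Both groups are the same cell line, grown in RPMI medium with serum, and per the labels the shRNA vectors were introduced by lipid transfection. The labels name no separate hairpins, clones or cultures behind the replicates, so the p-values reflect how much these arrays vary, and that variation may be only technical. Total RNA was read as 1 Affymetrix intensity per probe set and array. The number of arrays limits the precision, and in a bulk sample fewer expressing cells and less RNA per cell cannot be told apart.

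As background, the products of the 6 protease genes are trypsin-like enzymes of epithelial cells, either anchored in the membrane or secreted. St14 (matriptase), Hpn (hepsin), Tmprss2 and Tmprss4 are type II transmembrane proteases with the catalytic domain outside the cell. Prss8 (prostasin) is held by a lipid anchor and acts in a cascade with matriptase, and Prss22 is a tryptase of airway and other epithelia. Spint1 and Spint2 encode HAI-1 and HAI-2, transmembrane inhibitors with Kunitz domains that block matriptase, prostasin, hepsin and the activator of hepatocyte growth factor.

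The sequences upstream of Spint1, Tmprss2 and Spint2 are shown because these are members whose arrays did not overlap between the groups and whose start lies in the RefSeq promoter table used (build GRCm38.p6), which held 4 of the 8 members. Each run is the 250 bases before the annotated start, 5′ to 3′ on the gene's strand, with capitals marking GGGCGG (the GC box) and CAGGTG (the E-box of SNAIL and ZEB factors) on either strand. The matches do not overlap each other. The motifs were chosen after the sequences were seen.
Spint1, chr2:119237110-119237359, plus strand: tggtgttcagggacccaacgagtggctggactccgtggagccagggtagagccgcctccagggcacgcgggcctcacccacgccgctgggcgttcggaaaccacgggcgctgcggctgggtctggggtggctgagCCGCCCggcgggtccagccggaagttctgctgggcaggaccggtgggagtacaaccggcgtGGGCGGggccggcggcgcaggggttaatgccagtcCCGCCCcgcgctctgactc
Spint2, chr7:29281978-29282227, minus strand: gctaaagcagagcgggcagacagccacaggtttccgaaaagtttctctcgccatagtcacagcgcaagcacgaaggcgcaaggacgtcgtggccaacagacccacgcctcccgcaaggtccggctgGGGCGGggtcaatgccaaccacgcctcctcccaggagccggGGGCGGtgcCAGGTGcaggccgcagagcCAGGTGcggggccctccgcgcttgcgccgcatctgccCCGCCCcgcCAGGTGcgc
Tmprss2, chr16:97611196-97611445, minus strand: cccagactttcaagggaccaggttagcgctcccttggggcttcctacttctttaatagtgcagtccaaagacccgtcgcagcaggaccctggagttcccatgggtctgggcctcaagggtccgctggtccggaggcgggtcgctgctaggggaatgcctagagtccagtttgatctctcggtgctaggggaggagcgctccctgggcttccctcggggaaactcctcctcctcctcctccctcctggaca
The Spint1 window held 3 GGGCGG matches, starting 115, 54 and 19 bases before the start, and 0 CAGGTG matches. The Spint2 window also held 3 GGGCGG matches, and it held 3 CAGGTG matches, starting 74, 55 and 9 bases before the start. The Tmprss2 window held 0 matches of either motif. Of all 32851 windows of this length in the table, 32.7% held GGGCGG and 17.2% held CAGGTG. The G and C content was 72.8% for Spint1, 69.6% for Spint2 and 61.6% for Tmprss2. These matches describe the letters only, and nothing about factor binding was measured.

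The targeted gene Pik3ca was lower in the PIK3CA shRNA cells, at 1235 ± 14.3 against 2380 ± 63.6 (SD, n = 3 each), or 51.9% of control. Each change is given as log2(intensity + 16) in PIK3CA shRNA cells less that in control cells, and the added 16 shrinks the changes of dim genes. The limma test (Benjamini-Hochberg adjustment, adjusted p 0.05) called 2092 of 18193 genes (11.5%), 1068 higher (5.87%) and 1024 lower (5.63%). With 1 array left out, whichever of the 6 it was, it called 953 to 1138. The epithelial markers Krt8, Krt18 and Cdh1 were bright in both groups, with control intensities of 11904 ± 320, 13911 ± 731 and 11345 ± 238 (SD, n = 3 each). Krt19 was at 5544 ± 267 in control and 5439 ± 183 in PIK3CA shRNA cells (SD, n = 3 each). Epcam was lower, at 467.2 ± 44.5 and 368.4 ± 53.1, as was Cldn7, at 156.5 ± 33.1 and 116.5 ± 17.0 (SD, n = 3 each). Cldn4 was dim in both groups, at 82.2 ± 32.4 and 99.2 ± 15.1 (SD, n = 3 each). Of these 7 markers 0 were called, with 1 lower at an unadjusted limma p under 0.05. Of 5 lung epithelial markers only the surfactant gene Sftpb had a group mean above the median intensity of the arrays (134.7), at 1223 ± 87.4 in control and 1389 ± 70.6 in PIK3CA shRNA cells (SD, n = 3 each), and its groups did not overlap (limma adjusted p = 0.228). Nkx2-1 and Sftpc were at 116.2 ± 21.5 and 94.2 ± 10.1 in control and 101.6 ± 33.1 and 90.2 ± 14.9 in PIK3CA shRNA cells (SD, n = 3 each). The summed intensity of the 5 lung markers was 1386 to 1624 in control and 1629 to 1726 in PIK3CA shRNA cells, so it did not overlap. Most of this sum was Sftpb, so it mainly repeats the Sftpb values. Nkx2-1 (-0.20), Scgb1a1 (-0.20) and Sftpc (-0.06) were lower and Foxj1 was level (0.01). The median difference of the 5 was -0.06. The sums for leukocyte, fibroblast and endothelial markers overlapped between the groups. For 4 leukocyte markers they were 242.5 to 365.5 in control and 278.3 to 324.4 in PIK3CA shRNA cells, for 5 fibroblast markers 497.9 to 505.5 and 346.5 to 631.4, and for 4 endothelial markers 492.0 to 578.4 and 525.6 to 645.3. Within the endothelial list Pecam1 was at -0.80 (limma adjusted p = 0.0901), Cdh5 at 0.47 (limma adjusted p = 0.0949) and Kdr at 0.18 (limma adjusted p = 0.346), each without overlap between the groups. No marker was listed at 0, and the part of other cell types in the results was not tested.

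Among the members, Spint1, Spint2, Tmprss2 and Prss8 were higher on every PIK3CA shRNA array than on any control array. The other 4 members overlapped between the groups. By the fit over all genes 2 of the 8 members, Spint1 and Tmprss2, passed the threshold as higher and 0 as lower, with 0 lower also at an unadjusted limma p under 0.05. Over all genes 11.5% passed, and in 33.1% the groups did not overlap (16.1% higher, 17% lower). Because the group was picked on this comparison, nothing is read from its counts. The members' median difference was 0.16, and that of all genes was -0.01.

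**Figure D1:**
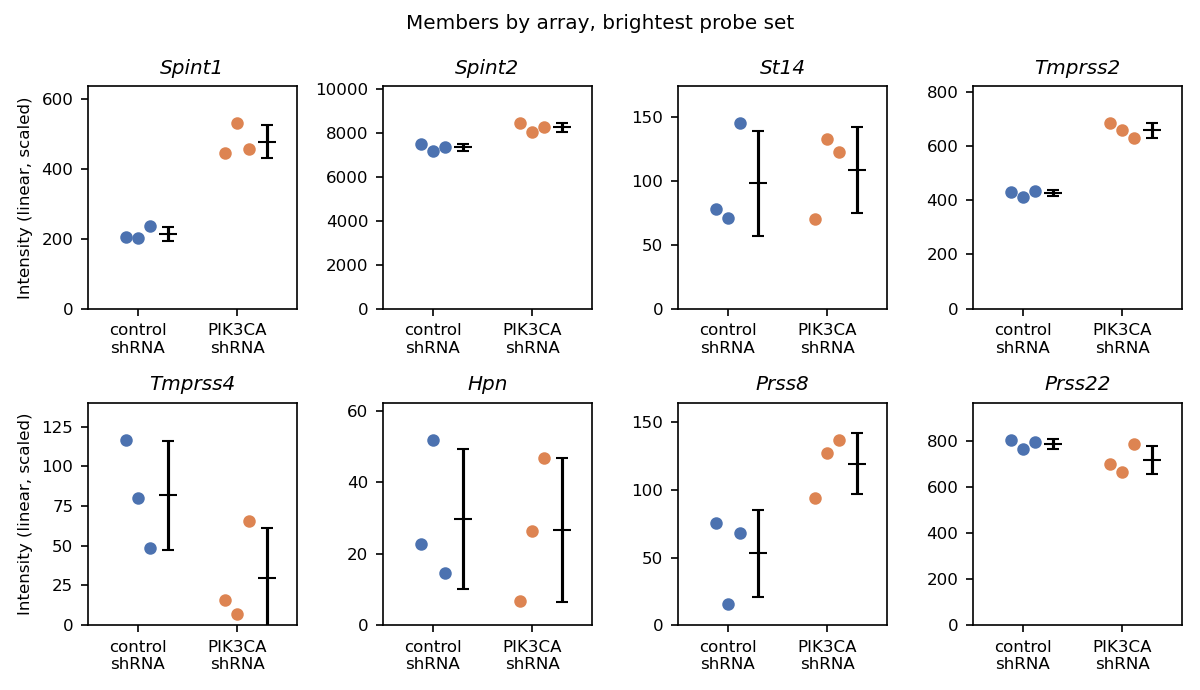
Intensity (linear, arrays scaled to a common median) of the brightest probe set of each member; each point is 1 array, the dash with bars is the mean ± SD of 3 arrays, and each panel has its own axis from 0, which cuts the lower bar of Tmprss4 in PIK3CA shRNA cells. The PIK3CA shRNA points lie above all control points for Spint1, Spint2, Tmprss2 and Prss8, and the groups overlap for St14, Tmprss4, Hpn and Prss22.

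Spint1, the gene of the inhibitor HAI-1, read 204.6, 200.8 and 236.4 on the control arrays and 446.5, 530.8 and 456.6 on the PIK3CA shRNA arrays. All 3 PIK3CA shRNA arrays lay above all 3 control arrays, the lowest by 0.87 on the log2 scale over the highest control array. The means were 213.9 ± 19.6 and 478.0 ± 46.0 (SD, n = 3 each), so PIK3CA shRNA cells were at 223% of control. The fitted difference was 1.10 with a standard error of 0.10, and 1.33% of all genes had a difference at least as high. Only 1 probe set names Spint1, so no other probe set bears on the value.

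Spint2, the gene of HAI-2, had high intensities and a small difference. Its brightest probe set read 7484, 7177 and 7345 in control cells and 8447, 8061 and 8255 in PIK3CA shRNA cells. The groups did not overlap, but they were only 0.11 apart on the log2 scale at their nearest arrays. The difference was 0.17 with a standard error of 0.05, at 113% of control. The other Spint2 probe set read 3949 ± 119 in control and 4722 ± 134 in PIK3CA shRNA cells (SD, n = 3 each), with a difference of 0.26, so both probe sets pointed the same way.

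Among the transmembrane proteases, Tmprss2, which is known for cleaving viral spike proteins and as an androgen-regulated gene of prostate, was higher in PIK3CA shRNA cells. Its brightest probe set read 429.6, 412.9 and 432.1 in control cells and 683.7, 659.9 and 628.1 in PIK3CA shRNA cells. The control arrays lay close together and well below the PIK3CA shRNA arrays. The difference was 0.61 with a standard error of 0.06, at 155% of control.

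The 4 Tmprss2 probe sets did not all show this. The next one read 253.7, 341.5 and 260.2 in control and 506.2, 546.3 and 537.9 in PIK3CA shRNA cells, a difference of 0.87. The remaining pair overlapped between the groups. One read 118.3 ± 14.3 and 147.4 ± 58.7 (SD, n = 3 each), with a difference of 0.22 and a standard error of 0.28. The other was very dim at 10.5 ± 4.90 and 9.86 ± 2.90 (SD, n = 3 each), below the pseudocount, with a difference of -0.02. As the mean of its probe sets Tmprss2 differed by 0.42 and did not pass the threshold.

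St14, the gene of matriptase, the main target of HAI-1 in epithelia, read 77.9, 71.0 and 145.2 in control cells and 70.1, 132.6 and 122.4 in PIK3CA shRNA cells. Each group had arrays near both ends of this range, and the groups overlapped. The difference was 0.14 with a standard error of 0.32. Both group means, 98.0 ± 41.0 and 108.4 ± 33.5 (SD, n = 3 each), were below the array median. The arrays of each group were spread so far apart that a moderate change in either direction was not detectable here.

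Tmprss4, a protease reported in several carcinomas, read 116.9, 79.8 and 48.3 in control cells and 15.5, 7.05 and 65.6 in PIK3CA shRNA cells. The PIK3CA shRNA arrays included the lowest values, but replicate 3 lay above the lowest control array. The difference was -1.26 with a standard error of 0.53, and it ran from -1.80 to -0.88 when 1 array was left out. Hpn, the gene of hepsin, was dim throughout, at 22.6, 52.0 and 14.5 in control and 6.72, 26.4 and 46.9 in PIK3CA shRNA cells. Its groups overlapped over nearly their whole range, with a difference of -0.13 and a standard error of 0.47.

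Of the other 2 proteases, Prss8, the gene of prostasin, read 75.4, 15.7 and 67.8 in control cells and 93.8, 127.6 and 137.3 in PIK3CA shRNA cells. The groups did not overlap, but control replicate 2 lay far below the other control arrays. The difference was 1.11, as large as that of Spint1, with a standard error of 0.43, more than that of Spint1. Without control replicate 2 the difference was 0.62, and both group means were below the array median. Prss22 was bright and nearly level, at 805.1, 762.3 and 793.2 in control and 700.1, 666.4 and 785.4 in PIK3CA shRNA cells. PIK3CA shRNA replicates 1 and 2 were below all control arrays and replicate 3 was within their range, with a difference of -0.13 and a standard error of 0.08.

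**Figure D2:**
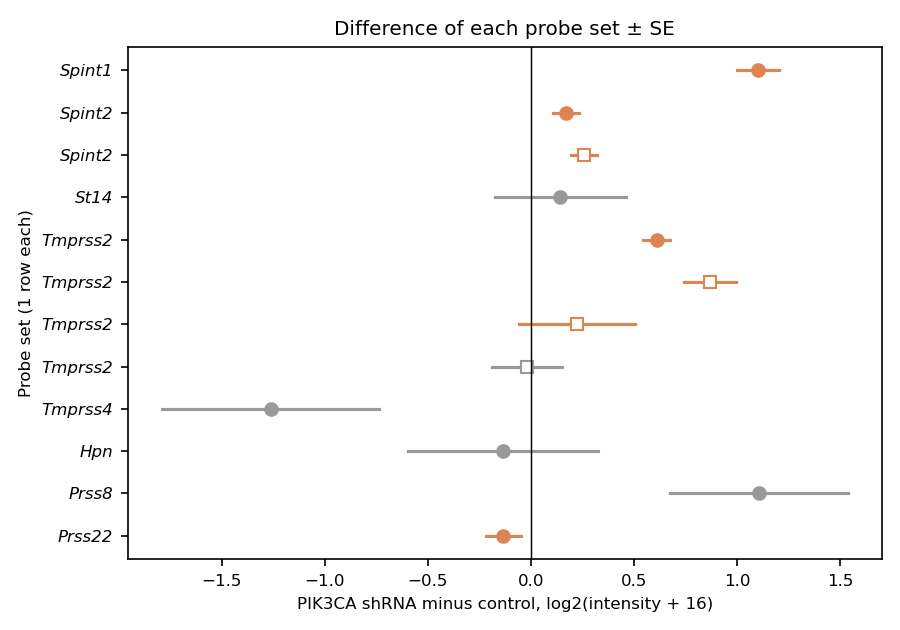
Difference of each of the 12 member probe sets (horizontal axis, PIK3CA shRNA minus control on the log2(intensity + 16) scale) with its standard error, from the limma fit over all probe sets with 1 symbol; circles are the brightest probe set of a gene, open squares the others, and grey marks probe sets whose means are below the array median in both groups. Spint1 at 1.10 and a pair of Tmprss2 probe sets at 0.61 and 0.87 have short bars away from 0, while St14, Tmprss4, Hpn and Prss8 have long bars.

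Spint1 lies on chromosome 2 in the RefSeq gene table (GRCm38.p6), where genes were on balance higher in PIK3CA shRNA cells. The median difference of the 737 chromosome 2 genes above the median brightness of all genes was 0.20, against -0.01 for all such bright genes. For the chromosomes of the other members this median lay between -0.02 for chromosome 17 and 0.02 for chromosome 7. With chromosome medians subtracted from each array the Spint1 difference was 0.91.

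The 5 tested genes on each side of Spint1 differed by -0.72 to 0.40, with a median of 0.03. Of these 10 genes 2 fell and 0 rose by limma, with 1 higher at an unadjusted p under 0.05. Gchfr, which encodes the feedback regulator of GTP cyclohydrolase, fell from 633.9 ± 19.2 to 491.5 ± 24.4 (SD, n = 3 each; limma adjusted p = 0.0250). The predicted gene Gm14137 fell from 186.1 ± 26.5 to 106.4 ± 11.4 (SD, n = 3 each), a change of -0.72 (limma adjusted p = 0.0236). The genes next to Spint1, Ppp1r14d and Rhov, named for their position, were at 0.30 and -0.13 and did not pass. Both were dim, so their differences say little. Ppp1r14d was at 9.89 ± 3.03 in control, below the pseudocount, and 16.7 ± 9.97 in PIK3CA shRNA cells (SD, n = 3 each). Rhov was at 47.4 ± 9.82 and 41.5 ± 3.42 (SD, n = 3 each).

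**Figure D3:**
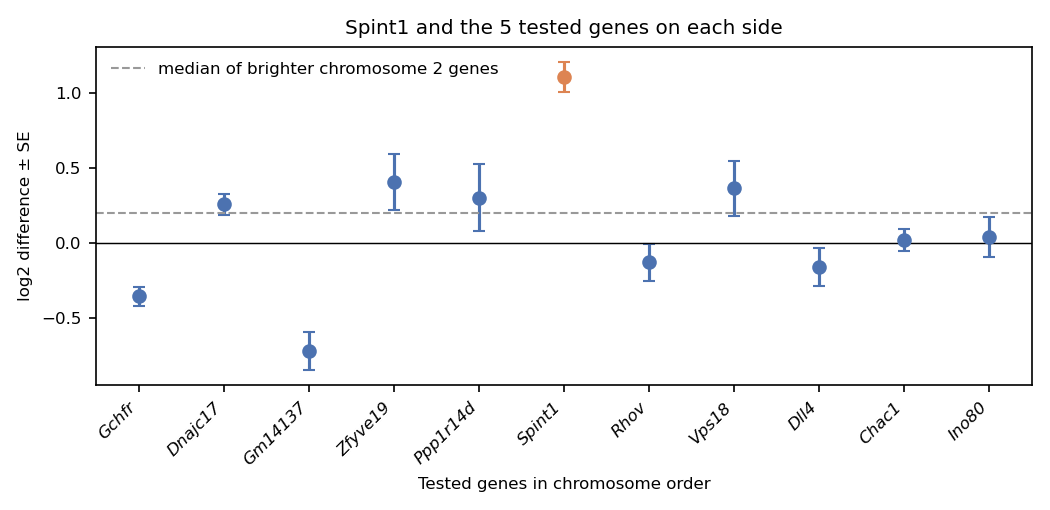
Difference (log2 scale, PIK3CA shRNA minus control) with its standard error for Spint1 and the 5 tested genes on each side, in chromosome order and not to distance; the dashed line is the median of the brighter chromosome 2 genes, 0.20. Spint1 at 1.10 stands above all 10 neighbours, the highest of which is at 0.40.

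Nearness to Spint1 over the 6 arrays was taken as the Euclidean distance of mean-centred log2 values. Genes with only a clone identifier or a predicted gene name were left out. The nearest of the rest were Ntm (distance 0.10), Pik3ap1 (0.18), Anxa13 (0.19), Abcc4 (0.22) and Cyp2s1 (0.22). Ntm encodes the neuronal adhesion molecule neurotrimin, Pik3ap1 an adaptor that binds phosphoinositide 3-kinase, Anxa13 an annexin of gut epithelium, Abcc4 an efflux pump and Cyp2s1 a cytochrome P450. Their differences were 1.06, 1.12, 1.11, 1.13 and 1.01, so the likeness rests mainly on the same step between the groups. Among these genes Ntm followed Spint1 most closely, with 223.2, 216.0 and 242.3 in control and 475.6, 534.0 and 467.0 in PIK3CA shRNA cells. The highest array of each group was the same as for Spint1.

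Genes that other work reports as substrates of these proteases, or as receptors of those substrates, included several that rose. Of 19 measured, 6 rose and 1 fell (36.8%, against 11.5% of all genes), and the median difference was 0.21 against -0.01 for all genes. With dim genes left out 7 of 14 were called, against 2670 of 13879 genes. This list and the lists below were chosen with earlier results of these data known, so no enrichment is read from their shares. Cdcp1, a transmembrane glycoprotein that matriptase and plasmin cleave, rose from 294.3 ± 13.2 to 671.2 ± 29.0 (SD, n = 3 each), a change of 1.15 (limma adjusted p = 0.000747). Hgfac, which encodes the activator of hepatocyte growth factor and is itself a target of HAI-1, rose from 590.2 ± 55.8 to 932.7 ± 11.9 (SD, n = 3 each), a change of 0.65 (limma adjusted p = 0.00920).

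Pdgfd, a growth factor that needs cleavage to act, rose by 0.98 (limma adjusted p = 0.00993) but was dim, from 14.1 ± 2.54, below the pseudocount, to 43.6 ± 8.35 (SD, n = 3 each). Plau, the gene of urokinase, whose precursor matriptase and hepsin can activate, rose from 94.2 ± 14.2 to 171.3 ± 20.8 (SD, n = 3 each; limma adjusted p = 0.0212). Named after their values were seen, Igfbp7 (0.30) and the laminin chain gene Lamb3 (0.34) rose and the stromelysin gene Mmp3 (-0.48) fell. The count of called genes was 3 without control replicate 1 or 3 or PIK3CA shRNA replicate 3 and 4 without any of the other 3 arrays. Plau had an adjusted p of 0.0551 to 0.0691 without control replicates 1 or 3 or PIK3CA shRNA replicates 1 or 3, Igfbp7 of 0.0635 to 0.0805 and Lamb3 of 0.0598 to 0.0987 without any 1 of the 6 arrays, and Mmp3 of 0.0756 to 0.120 without any 1 except PIK3CA shRNA replicate 1. As the mean of their probe sets Plau was at 0.40 (limma adjusted p = 0.125) and Igfbp7 at 0.25 (limma adjusted p = 0.133).

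The gene of hepatocyte growth factor, its receptor gene and a related receptor gene did not pass. Met and Mst1r were higher in PIK3CA shRNA cells without overlap between the groups, while the Hgf groups overlapped. Met was at 1082 ± 110 in control and 1421 ± 95.9 in PIK3CA shRNA cells (SD, n = 3 each; limma adjusted p = 0.0643). The related receptor gene Mst1r was at 48.9 ± 11.4 and 91.9 ± 27.5 (SD, n = 3 each; limma adjusted p = 0.111), and Hgf itself was at 73.1 ± 27.0 and 89.7 ± 45.7 (SD, n = 3 each; limma adjusted p = 0.780). The subunits of the epithelial sodium channel, which prostasin activates, did not pass either, with Scnn1a at 0.21, Scnn1b at 0.26 and Scnn1g at -0.10. Epcam, an adhesion molecule that matriptase cleaves, was at -0.33 (limma adjusted p = 0.168). These receptor, ligand and channel genes were named as the best known partners of the members, after their values were seen.

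Other membrane-anchored serine proteases were mostly dim. Of 15 measured, 3 fell and 0 rose (20% called, against 11.5% of all genes, of which 5.63% were lower), with 0 higher at an unadjusted limma p under 0.05. The median difference was -0.09, against -0.01 for all genes. Only 2 of the 15 had a group mean above the array median. Tmprss6, the gene of matriptase-2, which controls iron uptake through hepcidin, fell from 331.8 ± 58.9 to 150.1 ± 24.7 (SD, n = 3 each), a change of -1.06 (limma adjusted p = 0.0173). Tmprss5 fell by 1.05 on the log2 scale, from 46.5 ± 8.23 to 14.2 ± 2.77 (SD, n = 3 each; limma adjusted p = 0.00810). Tmprss11f fell from 25.8 ± 5.23 to 9.39 ± 4.58 (SD, n = 3 each; limma adjusted p = 0.0483), and both ended below the pseudocount. Tmprss6 had an adjusted p of 0.0627 without control replicate 3 and 0.0549 without PIK3CA shRNA replicate 1, and the count was then 1. Tmprss11f lost its call without any 1 of the 6 arrays, at 0.0549 to 0.136.

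Of 14 other Kunitz-domain and serpin inhibitors 1 rose and 0 fell (7.14% called, against 11.5% of all genes), with 0 lower at an unadjusted limma p under 0.05. The median difference was 0.15, against -0.01 for all genes. App, the amyloid precursor gene, some of whose splice forms carry a Kunitz domain, rose from 6255 ± 80.3 to 7606 ± 137 (SD, n = 3 each), a change of 0.28 (limma adjusted p = 0.0280). Its adjusted p was 0.0696 to 0.0954 when any 1 of the 6 arrays was left out, and as the mean of its probe sets App was at 0.16 (limma adjusted p = 0.209). Wfikkn1, named after its values were seen, was at 21.5 ± 2.89 in control and 83.5 ± 45.8 in PIK3CA shRNA cells (SD, n = 3 each; limma adjusted p = 0.108, and 0.00810 without PIK3CA shRNA replicate 2).

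Of 18 measured regulators of the epithelial programme, 3 rose and 1 fell (22.2% called, against 11.5% of all genes), with a median difference of 0.08 against -0.01 for all genes. Cdx2, the caudal homeobox factor of intestinal epithelium, rose from 97.8 ± 18.3 to 862.4 ± 67.3 (SD, n = 3 each), a change of 2.96 (limma adjusted p = 0.000347). Hnf4a, a nuclear receptor of liver and gut, rose by 1.14 (limma adjusted p = 0.00122) and Klf4 by 0.46 (limma adjusted p = 0.0112), while the repressor gene Snai2 fell by 0.49 on the log2 scale (limma adjusted p = 0.00771). As the mean of their probe sets Klf4 was at 0.30 and Snai2 at -0.08, and neither passed. Other SNAIL and ZEB genes, named after their values were seen, were higher but did not pass. Zeb1 was at 0.36 (limma adjusted p = 0.116) and Zeb2 at 0.25 (limma adjusted p = 0.0813), each without overlap between the groups. Snai1 was at 0.45 with overlapping groups (limma adjusted p = 0.311). Hnf4a, Zeb2 and Snai1 lie on chromosome 2, where the median difference of the brighter genes was 0.20. With chromosome medians subtracted Hnf4a was at 0.94 (limma adjusted p = 0.00221). Grhl2, a grainyhead factor of epithelial surface genes, was at 391.2 ± 38.2 in control and 260.2 ± 92.2 in PIK3CA shRNA cells (SD, n = 3 each, limma adjusted p = 0.180). Its groups overlapped. The other grainyhead genes were split, with Grhl1 at -0.46 (limma adjusted p = 0.0624) and Grhl3 at 0.99 (limma adjusted p = 0.116), each without overlap. All of these grainyhead genes were named after their values were seen.

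**Figure D4:**
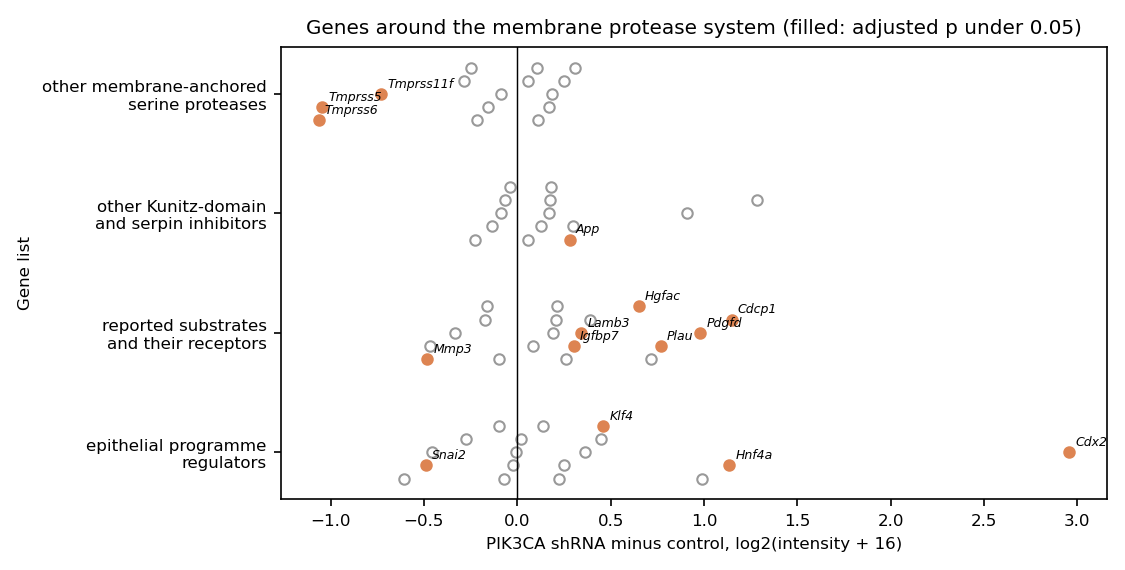
Difference (horizontal axis, PIK3CA shRNA minus control on the log2(intensity + 16) scale) of each measured gene of 4 lists around the membrane proteases; filled named points passed adjusted p 0.05 in limma and open points did not, and the vertical offset within a list has no meaning. The called genes of the protease list lie between -1.06 and -0.73, 6 of the 7 called substrate and receptor genes lie above 0, and Cdx2 lies at 2.96.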

How the data were processed

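Total RNA of 6 samples, 3 per group as the titles give them, was labelled with biotin and hybridised to Affymetrix arrays, per the labels' protocols. The authors deposited linear intensities for 45101 probe sets (0.0359 to 17918.5 over the arrays), with array medians already close to each other. How the intensities were summarized and normalized was not given in the sources used here. No 2 arrays were identical (0 pairs).

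Intensities were scaled to a common median (array medians were 134.6 to 135.0) and taken to log2(intensity + 16). The 64 control probe sets were left out. By the platform annotation 34945 probe sets had 1 gene symbol, 932 several and 9160 none listed; 34741 matched RefSeq (GRCm38.p6) by identifier, with 0 symbols altered. The brightest probe set stood for each gene. The fit used limma 3.58.1 under R 4.3.3 (two-sided, no replicate block), adjusted over 18193 genes; the steps were tested on simulated data. Values of further probe sets come from a fit over all probe sets with 1 symbol.

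Named were all members, Pik3ca, up to 4 called genes per list and the called neighbours of Spint1. The 5 genes nearest to Spint1, clone identifiers and predicted genes left out, were also named. Others are marked in the text or are cell markers. Members and lists were chosen with earlier results of these data known. Alternatives covered block, normalization, dim genes, probe set choice, pseudocounts, test, chromosome medians and each array left out. Figures were drawn with matplotlib 3.10.9.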

Additional observations from a re-analysis of the deposited data

How the results depend on the processing

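The Spint1 difference was 0.91 to 1.17 over the 18 alternatives, a description only, because the group was picked on this value. Several alternatives could not change it: the replicate block, dim genes left out and the intensity trend with a robust prior. The probe set choices could not change it either, because Spint1 has 1 probe set. The Spint1 values below are from alternatives that could. It was 0.96 at a pseudocount of 64 and 0.91 with chromosome medians subtracted, and 1.03 to 1.17 with 1 array left out. Tmprss2 was above 0 under all 18, at 0.42 to 0.87, and Prss8 at 0.62 to 1.42. Tmprss4 was below 0 under all 18, at -1.91 to -0.67. St14 and Hpn had both signs among their alternatives, at -0.02 to 0.42 and -0.47 to 0.26; Hpn gave no value with dim genes left out. The count over all genes rose to 3192 when limma used an intensity trend with a robust prior and was 953 to 1138 with 1 array left out. The protease list had 1 called gene with dim genes left out and 1 to 2 with 1 array left out. The list of Kunitz-domain and serpin inhibitors had 0 called for the mean of probe sets, the probe set most variable by interquartile range, and subtracted chromosome medians (limma; 2 each at an unadjusted p under 0.05), and 0 to 1 with 1 array left out. The substrate list had 3 to 4 with 1 array left out, and the regulator list 2 with the mean of probe sets.

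Same-numbered arrays did not deviate together over all genes (correlations of 0.05, -0.02 and -0.02 for replicates 1, 2 and 3). The labels do not say whether equal numbers share a culture or batch. These correlations cannot settle it, because each deviation rests on only 3 arrays and takes in many dim genes. With the replicate number as a block the count over all genes was 410, with 0 called proteases (limma; 3 at an unadjusted p under 0.05), 0 Kunitz-domain and serpin inhibitors (2 at an unadjusted p under 0.05), 2 substrate and receptor genes and 2 regulators. The block cannot change the fitted differences, because each replicate number has 1 array in each group, so Spint1 stayed at 1.10. Spint1 was the 1 member past the threshold, Tmprss2 no longer passing, and nothing is read from this count. The block leaves fewer residual degrees of freedom; other causes of these shifts were not tested. The table has no detection calls or background level, so how far the signal of dim members such as St14, Hpn and Tmprss4 lies above background was not tested.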
